A study of Mus musculus with 6 samples.

Results

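RNA of mouse embryonic fibroblasts (MEFs) was compared between 2 ways of making the sequencing library. The comparison took in all 6 samples of the series: 3 from strand-specific libraries made after removal of ribosomal RNA (rRNA) and 3 from libraries made by poly(A) enrichment, with 1 sample of each kind at population doubling (PD) 2, 8 and 14. All 6 samples were fibroblasts of C57BL/6 embryos, grown in DMEM with fetal bovine serum and passaged serially near confluence, with no further genotype or treatment given. PD is the running sum of log2 of cells counted over cells seeded. The labels do not say whether the paired samples shared a culture. Method and culture series therefore cannot be told apart, and each p-value below measures only the spread between these samples, which may be technical. Of the 21988 genes in the deposited table, 13362 had a rescaled TPM (a transcript abundance per length, scaled to a sum of 1000000) of at least 1 in 2 or more samples and were compared. Ccdc152 was just inside that limit, with a second-highest value of 1.0008 TPM, and Dlx6 was just outside it at 0.9999.

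The deposited columns of the poly(A) samples summed to 1000000 TPM and those of the rRNA-depleted samples to 937922, 950531 and 937217, which is 6.21%, 4.95% and 6.28% short of that sum. The reason for the shortfall was not tested. Each sample had 12554 to 12883 genes at 1 TPM or more. TPM carries no read number, so the depth behind each value is unknown.

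Most messenger RNAs end in a poly(A) tail, which oligo(dT) captures. Removal of ribosomal RNA keeps RNA with or without a tail, including fragments that have lost their 3' end and pre-mRNA that still holds introns. The main metazoan mRNAs without a tail are those of the replication-dependent histones. These proteins package newly made DNA, and their mRNAs end just after a hairpin that stem-loop binding protein recognises. A few of these genes can also make a tailed transcript that reads past the hairpin.

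The hairpin is shown here because it is the 3' end feature of the histone mRNAs, the group with the largest differences between the methods. Each line gives a site from the GENCODE M21 transcripts (mm10, sense strand, 5′ to 3′), with the hairpin in capitals and 5 flanking bases on each side. The first 6 genes were among those higher in the rRNA-depleted samples and the last 2 did not pass the test.
Hist1h4f: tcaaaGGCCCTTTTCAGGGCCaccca
Hist1h4b: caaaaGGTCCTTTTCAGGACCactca
Hist1h2bm: acaaaGGCTCTTTTCAGAGCCactaa
Hist1h3a: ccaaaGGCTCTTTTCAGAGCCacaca
Hist1h2ag: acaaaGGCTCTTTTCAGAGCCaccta
Hist1h1e: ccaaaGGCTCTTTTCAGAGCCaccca
Hist1h1c: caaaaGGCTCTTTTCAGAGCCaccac
Hist3h2a: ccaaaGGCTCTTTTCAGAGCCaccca
These sites lie at chr13:23551286-23551311 on the minus strand (Hist1h4f), chr13:23757361-23757386 on the plus strand (Hist1h4b) and chr13:21722501-21722526 on the plus strand (Hist1h2bm). Hist1h3a has its site at chr13:23761885-23761910 and Hist1h2ag at chr13:22042478-22042503, both on the minus strand. The site of Hist1h1e is chr13:23621777-23621802 on the minus strand, that of Hist1h1c chr13:23739507-23739532 and that of Hist3h2a chr11:58955167-58955192, both on the plus strand. All are in exons, downstream of the coding sequence. The search was for CTTTTCAG on the sense strand with all 4 bases on each side able to pair, G with T allowed. It found the hairpin in 35 of the 68 histone gene models (51.5%) and in 0.4% of all matched genes. Of the 35 hairpins, 26 read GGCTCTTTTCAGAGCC, 7 read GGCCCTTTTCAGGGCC and 2 read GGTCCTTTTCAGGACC. The other histone models held no match, and a model that leaves out the 3' end cannot hold one.

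Replication-dependent histone mRNAs were the group most strongly higher in the rRNA-depleted samples. All 68 members of the list were in the table and 65 passed the filter on TPM. Of these 65, 54 were higher in the rRNA-depleted samples, 0 were higher in the poly(A) samples and 11 did not pass the test. The background over all 13362 genes was 24.3% higher in rRNA-depleted and 13.1% higher in poly(A). The same shares are the background for the counts of each list below. The median log2 difference of the list, rRNA-depleted minus poly(A) on the log2(TPM + 1) scale, was 4.27, against 0.12 for all genes. Histones made up 19 of the 20 largest differences and 35 of the 42 genes called at a log2 difference of 4 or more in that direction.

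Hist1h4f, an H4 gene, had 327, 196 and 132 TPM by rRNA depletion, in the order PD2, PD8 and PD14 kept throughout, and 0, 0.19 and 1.47 TPM by poly(A) enrichment. The groups were far apart at each doubling, and the fitted log2 difference was 7.16 ± 0.49 (SE, n = 3 pairs; adjusted p = 0.00309, limma). Hist1h4d, a second H4 gene, had 1070, 566 and 428 TPM against 1.31, 5.74 and 8.98 TPM (6.89 ± 0.64, adjusted p = 0.0044, limma). Its hairpin lies 770 bases before the end of the annotated model. Hist1h2bm had 158, 61.1 and 34.6 TPM against 0.182, 0 and 0.0752 TPM, a log2 difference of 6.02. Hist1h3a had 188, 71.8 and 39.5 TPM against 0.603, 0.535 and 0.425 TPM, a difference of 5.76.

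Every histone class had this direction. H4 genes summed to 4619, 2433 and 1849 TPM in the rRNA-depleted samples and to 63, 256 and 437 TPM in the poly(A) samples. The H2A sums were 3362, 1656 and 1104 TPM against 168, 365 and 445 TPM, and the H3 sums 2580, 1108 and 653 TPM against 68.6, 127 and 176 TPM. H2B genes summed to 3314, 1869 and 1112 TPM against 305, 682 and 974 TPM. For the linker histones, H1, the sums were 1715, 754 and 503 TPM against 142, 249 and 409 TPM. Members called higher in rRNA-depleted numbered 11 of 13 for H4, 15 of 18 for H2A, 13 of 16 for H2B, 10 of 12 for H3 and 5 of 6 for H1. Many of these genes are near-identical copies, so the values of single members are uncertain. Without the PD8 pair 34 histones were called, and without the pairing by doubling 54, all higher in rRNA-depleted. Without the PD2 pair 55 were higher in rRNA-depleted and 4 in poly(A).

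The histone values ran in opposite directions along the passage series. The median histone gene went from 204 to 90.4 to 52.4 TPM by rRNA depletion, and from 2.12 to 4.03 to 5.38 TPM by poly(A) enrichment. The whole list took 1.56%, 0.782% and 0.522% of TPM by rRNA depletion and 0.0748%, 0.168% and 0.244% by poly(A) enrichment. The median difference of the list thus went from 5.71 at PD2 to 3.81 at PD8 and 3.09 at PD14, and at PD14 59 of the 65 members were higher in the rRNA-depleted sample.

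**Figure D1:**
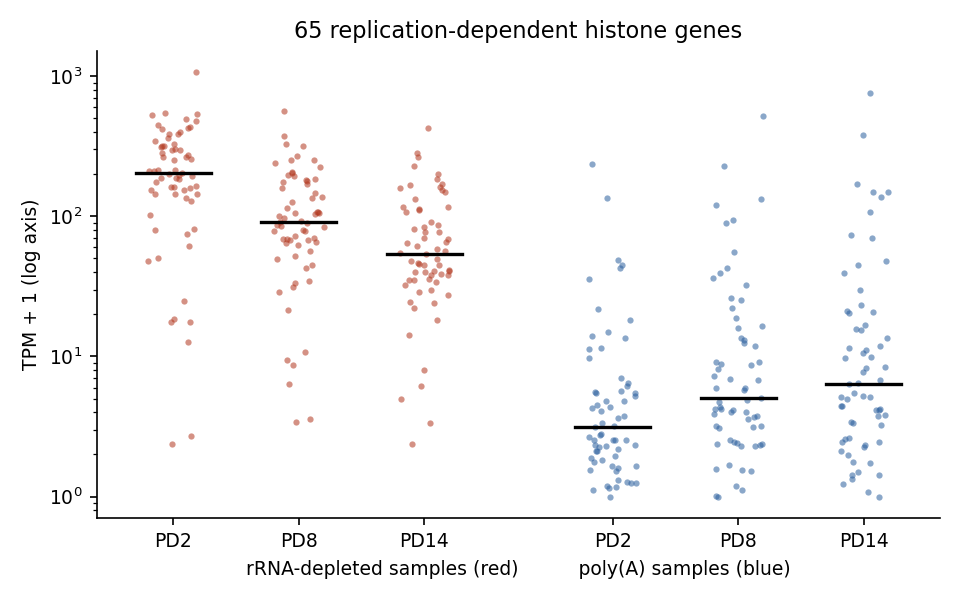
TPM + 1 (log axis) of the 65 tested replication-dependent histone genes in each sample. Points are genes, black bars are medians over genes, and red marks rRNA-depleted and blue poly(A) samples. The medians step down with doubling in the rRNA-depleted samples and step up in the poly(A) samples, and a few genes are high in all 6.

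The 11 members that did not pass had log2 differences from -1.59 to 1.79. At the top was Hist1h4m, an H4 gene, with 273, 178 and 148 TPM in the rRNA-depleted samples against 12.6, 87.9 and 147 TPM in the poly(A) samples (adjusted p = 0.137). At the bottom was Hist2h3c1, an H3 gene, with 16.7, 5.39 and 4 TPM against 13.9, 25.3 and 38.4 TPM (adjusted p = 0.094). For both genes the methods were furthest apart at 1 end of the passage series and close at the other. Hist1h1c, a linker histone gene, had 280, 207 and 162 TPM in the rRNA-depleted samples and 133, 227 and 377 TPM in the poly(A) samples, a difference of -0.1 (adjusted p = 0.865). Hist1h2bc had 296, 371 and 283 TPM against 237, 519 and 755 TPM (-0.53, adjusted p = 0.241). Hist3h2a had 46.7, 27.7 and 28.8 TPM against 34.9, 38.1 and 44.1 TPM (-0.21, adjusted p = 0.479). The groups of these 3 overlapped. The annotated models of Hist1h1c and Hist3h2a run 840 and 1643 bases past the hairpin shown above and end in a poly(A) signal.

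That signal, AATAAA or ATTAAA on the sense strand in the last 50 bases of the model, was present in 14 of the 68 histone models (20.6%) and in 71.8% of all matched genes. The 13 tested histone genes with the signal had a median difference of 1.91 and a range from -1.59 to 5.15. The 52 without it had a median of 4.5 and a range from -0.53 to 7.16. The ranges overlap, and a match in the model does not show that the site is used. A model that leaves out the 3' end can hold neither the signal nor the hairpin. Some models without a hairpin match were short, at 312 bases for Hist1h4k and 381 for Hist2h2bb. The next medians therefore cannot tell genes that lack the hairpin from genes with a shortened model. The 34 tested members with a hairpin had a median of 3.33, and the 31 without one in the model a median of 4.57. The 18 tested members with the hairpin within 100 bases of the end had a median of 3.64, with 15 called, and the 16 with a longer tail beyond it a median of 3.19, with 11 called.

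Replication-independent histone variants, most of whose mRNAs are polyadenylated, had a median difference of 0.06, and 2 of 11 were higher in each direction. H1fx, a linker variant, had 24.9, 26 and 23.3 TPM against 6.99, 8.01 and 12.7 TPM (1.37 ± 0.22). H2afz, the variant H2A.Z, had 165, 92.7 and 70.1 TPM against 352, 143 and 93.4 TPM (-0.71 ± 0.15). Of the matched genes 98.88% were protein-coding, and small nuclear, small nucleolar and long noncoding RNAs were not analysed here.

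Over all genes, 5001 of 13362 differed between the methods at an adjusted p under 0.05 (37.4%), 3250 of them higher in the rRNA-depleted samples and 1751 higher in the poly(A) samples. Of the called genes, 1527 were higher in rRNA-depleted by at least 1 on the log2 scale and 534 higher in poly(A) by as much. At a size of 2 or more the numbers were 270 and 97. The size of the difference went up along the passage series: 13.7% of genes differed by at least 1 between the paired samples at PD2, 17.9% at PD8 and 26.6% at PD14. The sign was the same in all 3 pairs for 69.2% of genes, and the 3 values of 1 method lay wholly above those of the other for 44.8%.

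Scaling moved the balance of the calls. The median difference of all genes was 0.12 with each column rescaled to 1000000, -0.01 after median-of-ratios scaling and -0.06 after quantile normalization, and the share of calls that were higher in rRNA-depleted was 65.0%, 50.4% and 45.7% in that order. Without the PD8 pair the calls dropped to 633 and 138, and without the pairing by doubling to 2134 and 1001.

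**Figure D2:**
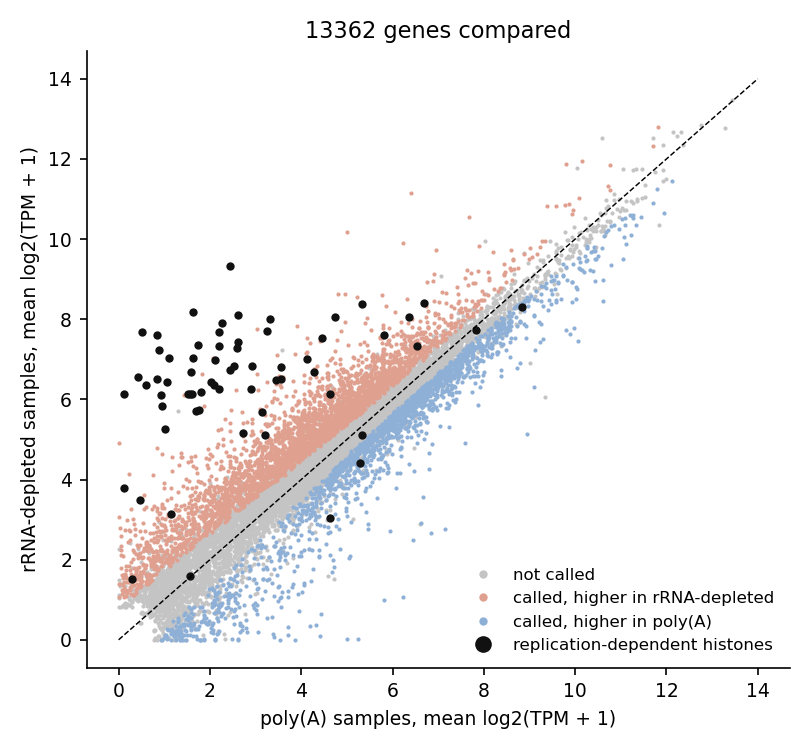
Mean log2(TPM + 1) of each of the 13362 genes in the 3 poly(A) samples (horizontal) and the 3 rRNA-depleted samples (vertical). Most histones (black) sit far above the dashed line of equal values, and a few lie near or below it. Genes called in either direction lie on both sides of the line.

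Long transcripts were higher in the rRNA-depleted samples and short transcripts in the poly(A) samples. Transcript length was that of the principal GENCODE transcript, with the replication-dependent histones left out. Of 795 genes under 1000 bases, 9.56% were higher in rRNA-depleted and 32.2% higher in poly(A), with a median difference of -0.28. Of 711 genes of 8000 bases or more, 70.7% were higher in rRNA-depleted and 1.55% higher in poly(A), with a median of 0.92. Between these, the medians were -0.23 for 1000 to 2000 bases, 0.05 for 2000 to 4000 and 0.42 for 4000 to 8000. The step from the shortest to the longest bin was present at each doubling, from -0.21 to 0.85 at PD2, from -0.32 to 0.83 at PD8 and from -0.34 to 1.05 at PD14.

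**Figure D3:**
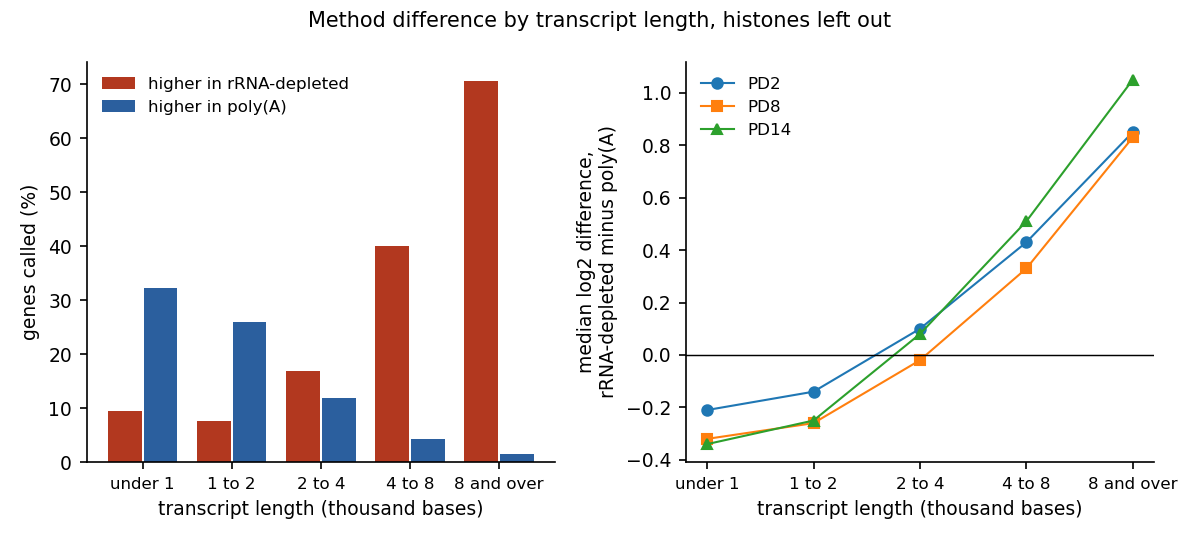
Left, the percentage of genes called in each direction by transcript length in kb. Right, the median log2 difference of all tested genes in the same bins at PD2, PD8 and PD14. Both go from poly(A) to rRNA-depleted with length, and the 3 lines on the right run close together.

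At a fixed length, the differences also varied with base composition and gene span. Among the 5184 genes with transcripts of 2000 to 4000 bases, the 486 with a GC content under 42% had a median difference of 0.46, with 37.0% higher in rRNA-depleted and 4.53% higher in poly(A). The 1359 with 52 to 57% GC had a median of -0.05, and the 841 above that a median of 0, with 13.4% higher in rRNA-depleted and 12.4% in poly(A). In the same length bin, 464 genes spanning 100000 bases or more of genome had a median of 0.35 and 1098 genes spanning under 10000 bases a median of -0.08. Length, composition and span are related to each other, and their separate parts were not tested.

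The giant proteins, a list of genes with very long coding sequences, showed the length relation gene by gene: 34 of the 36 tested were higher in rRNA-depleted and 0 in poly(A), with a median of 1.32. Fat4, an atypical cadherin of planar polarity (chromosome 3, 38886940 to 39011985), had 170, 468 and 657 TPM in the rRNA-depleted samples against 23.2, 52.5 and 39.6 TPM in the poly(A) samples. Its difference was 3.32 ± 0.24 (adjusted p = 0.00338, limma). Ahnak, a large scaffold protein gene, had 1215, 1644 and 1688 TPM against 230, 214 and 171 TPM (2.87 ± 0.19). The cytoskeletal linkers Macf1, Dst and Plec had 272, 250 and 317 TPM at PD2 by rRNA depletion and 160, 82.5 and 108 TPM by poly(A) enrichment. The exceptions were Flna, filamin A, at 1201, 1263 and 1003 TPM against 1125, 911 and 660 TPM (adjusted p = 0.0854), and Fn1, fibronectin, at 5904, 9307 and 7134 TPM against 4853, 9345 and 7171 TPM (adjusted p = 0.732). Centred on the median of its length bin, the list kept a median of 0.4.

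Zinc finger genes named Zfp, most of them encoding DNA-binding transcription factors, had 153 of 354 higher in rRNA-depleted and 2 higher in poly(A), with a median of 0.64 (0.42 after centring on length). Leaving out the PD8 pair left 16 calls toward rRNA-depleted. The largest differences were those of Zfp975 (2.43 ± 0.41) and Zfp423 (2.40 ± 0.25).

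Genes of the translation and energy machinery, which are short and abundant, were more often higher in poly(A). Of 79 cytosolic ribosomal protein genes, 31 were higher in poly(A) and 7 in rRNA-depleted, with a median of -0.34. Rpl35a, of the large subunit, had 465, 550 and 477 TPM in the rRNA-depleted samples against 1664, 1362 and 1158 TPM in the poly(A) samples (-1.47 ± 0.15, adjusted p = 0.00518, limma). Rps29, of the small subunit, ran the other way at 1769, 1919 and 1767 TPM against 700, 754 and 554 TPM (1.45 ± 0.13, adjusted p = 0.00435, limma). The groups of both genes were well apart. The 7 in that direction, Rpl37a, Rpl38, Rpl39, Rps21, Rps27, Rps28 and Rps29, were singled out after their values were seen. Their transcripts were 345 to 612 bases long, with a median of 437, against a median of 887 for the 31. Ribosomal proteins have many processed pseudogenes, so their read assignment is uncertain.

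Mitochondrial ribosomal proteins had 29 of 78 higher in poly(A) and 2 in rRNA-depleted (median -0.36), and nuclear-encoded respiratory chain subunits 35 and 2 of 78 (median -0.32). Mrpl14 had 22.2, 26.6 and 26.2 TPM by rRNA depletion against 42.5, 67.7 and 73.6 TPM by poly(A) enrichment. Cox8a, of complex IV, had 372, 347 and 342 TPM against 700, 768 and 838 TPM. Proteasome subunits had 24 of 38 higher in poly(A) and 1 in rRNA-depleted (median -0.55). Psmb3, of the core particle, had 206, 170 and 137 TPM against 369, 303 and 313 TPM. After centring on length the medians of these 4 lists, in the order named from the cytosolic ribosome on, were -0.13, -0.21, -0.13 and -0.34. Without the PD8 pair their calls toward poly(A) numbered 1, 0, 0 and 2, and without the pairing 12, 23, 25 and 16.

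Most of the 13 mRNAs encoded in mitochondrial DNA carry short tails. Of the 13, 1 was higher in rRNA-depleted and 0 in poly(A). The largest differences, not past the threshold, were those of the overlapping ATP synthase genes. mt-Atp8 had 6755, 5176 and 5798 TPM in the rRNA-depleted samples against 7408, 851 and 576 TPM in the poly(A) samples (adjusted p = 0.0725). mt-Atp6 had 7028, 4638 and 1305 TPM against 6694, 471 and 367 TPM (adjusted p = 0.0704). At PD2 the values of the methods were close for both genes, and the poly(A) values were far lower at PD8 and PD14. The 2 coding regions overlap, so reads can be split between them.

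Metabolic groups also had more calls on the poly(A) side. Glycolysis and hypoxia genes had 14 of 24 higher in poly(A) and 0 in rRNA-depleted, with a median of -0.81 (-0.84 after centring on length). Pgk1, phosphoglycerate kinase, had 451, 361 and 253 TPM by rRNA depletion against 950, 999 and 954 TPM by poly(A) enrichment (-1.48 ± 0.18, adjusted p = 0.00655, limma). Slc16a3, the lactate exporter MCT4, had 29.5, 15.9 and 11 TPM against 43.5, 65 and 46.4 TPM (-1.50 ± 0.32). Sterol synthesis genes had 13 of 24 higher in poly(A) and 0 in rRNA-depleted (median -0.39). Without the pairing by doubling 0 sterol genes passed, and without the PD8 pair 2 sterol and 2 glycolysis genes did. Mvd, of the mevalonate pathway, had 72.4, 36.4 and 23.5 TPM against 168, 80.4 and 56.1 TPM (-1.18 ± 0.10). In each of these 3 genes the poly(A) value was above the rRNA-depleted value at every doubling.

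The rRNA-depleted libraries kept the strand of the RNA per the labels, and the strand setting of the poly(A) libraries is not given in the sources used here. Overlap with a gene on the opposite strand did not by itself go with a method. Of 9034 genes with no such exon overlap, 24.4% were higher in rRNA-depleted and 1169 genes in poly(A), which is 12.9%. Of 1284 genes with over 500 overlapping bases, 25.5% were higher in rRNA-depleted and 167 genes in poly(A). The shares were also taken by the level of the partner relative to the gene. Where it was at least 10 times the gene in the rRNA-depleted samples (256 genes), 8.59% were higher in rRNA-depleted and 24.2% in poly(A). With a weaker partner (1931 genes) the shares were 19.5% and 14.2%. The gene's own rRNA-depleted value enters this ratio, so genes low by that method are picked more easily. The shares are thus partly set by the choice of genes and cannot show an effect of the partner. Single loci differed widely. Snx22, a sorting nexin gene, had 0.171, 0.31 and 0.328 TPM in the rRNA-depleted samples against 13.3, 16.8 and 23.1 TPM in the poly(A) samples, and shares 825 exon bases with Ppib, which lay between 674 and 954 TPM in all 6. Pkd2l2 had 0.137, 0.136 and 0.0163 TPM against 11.8, 12.1 and 12.7 TPM and shares 631 bases with Fam13b. The pairs describe overlap, and reads of the partner cannot be told apart from those of the gene in an unstranded count.

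Among genes of at least 5 TPM on average that were called at least 2 higher in poly(A), 20 of 72 (27.8%) had such an overlap, against 31.3% of all tested genes of that level. A partner at 10 times the gene or more, by the same ratio, was found for 6 of the 72 (8.33%). It was found for 0 of 189 called at least 2 higher in rRNA-depleted and for 0.875% of all tested genes of that level. Because the ratio favours genes low by rRNA depletion, this contrast is also partly set in advance. The following loci are examples. Gadl1, a pyridoxal-dependent decarboxylase gene, was listed at 0 in all 3 rRNA-depleted samples and had 10.9, 9.31 and 11.8 TPM in the poly(A) samples. Of its exon bases, 162 overlap a processed pseudogene on the opposite strand. Fam221b had 0.269, 0.714 and 0.753 TPM against 16.9, 22.6 and 22.6 TPM, with 297 bases opposite a pseudogene. Gm26992, singled out after its values were seen, lies opposite Xist with 431 shared bases (chromosome X, 103422010 to 103481705). It had 0.015, 0 and 0 TPM in the rRNA-depleted samples and 36.9, 32.4 and 24.8 TPM in the poly(A) samples. Xist itself was not analysed here.

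Genes that lie inside another gene on the same strand, or share exon bases with one, differed in both directions. Of 908 genes that share exon bases in this way, 23.7% were higher in rRNA-depleted and 8.59% in poly(A). For the 12102 that do not, the shares were 24.1% and 13.6%. Zbed6, Pet117 and Ncapd2 are examples from the genes named by size. Zbed6, a transcription factor gene inside Zc3h11a (chromosome 1, 133655879 to 133660885), had 0.864, 1.06 and 1.04 TPM against 66.4, 54 and 46.7 TPM (-4.82 ± 0.19, adjusted p = 0.00256, limma). Zc3h11a itself had 232, 199 and 220 TPM against 121, 84.1 and 81.9 TPM. The whole Zbed6 model is shared with the predicted gene Gm38394. Pet117, a cytochrome oxidase assembly gene, lies wholly within Kat14 and had 34.5, 25.4 and 28.1 TPM against 2e-05, 0.000575 and 0.0307 TPM (4.90 ± 0.20, adjusted p = 0.00256, limma). Ncapd2, a condensin subunit needed for chromosome condensation (chromosome 6, 125168007 to 125191701), had 852, 1086 and 1653 TPM against 56.8, 30.7 and 17 TPM (5.17 ± 0.48, adjusted p = 0.0044, limma). It shares 235 exon bases with Gm28967 on the same strand, and an annotated small RNA gene touches one of its exons. The division of reads between such overlapping models is uncertain, and its part in these differences was not tested.

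Marker lists of several cell types also differed. In bulk RNA, fewer cells of a type and less RNA per cell cannot be told apart. Fibroblast markers were abundant in all samples, at a summed 26760 to 49953 TPM, with 10 of 21 higher in rRNA-depleted and 3 in poly(A). Erythroid markers had 0 tested members, and the T cell gene Cd3e was listed at 0 in all 6 samples. The 3 fibroblast markers higher in poly(A) were Thy1, Twist2 and Fbln2. Thy1, a surface glycoprotein, had 343, 179 and 124 TPM in the rRNA-depleted samples against 931, 932 and 972 TPM in the poly(A) samples (-2.26 ± 0.29, adjusted p = 0.00724, limma). Twist2, a mesenchymal transcription factor, had 127, 42 and 35.4 TPM against 307, 181 and 230 TPM (-2.01 ± 0.27). Fbln2, fibulin 2, had 735, 555 and 323 TPM against 1198, 2092 and 1558 TPM (-1.63 ± 0.31). For all 3 the lowest poly(A) value was above the highest rRNA-depleted value. With the PD8 pair left out, 2 fibroblast markers passed toward rRNA-depleted and 0 toward poly(A).

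Cartilage and bone markers were higher in the rRNA-depleted samples in 15 of 16 tested members and higher in poly(A) in 0, with a median of 2.23 (1.73 after centring on length). Comp, a cartilage matrix protein (chromosome 8, 70373558 to 70382066), had 18, 177 and 295 TPM against 0.976, 3.48 and 4.09 TPM (4.81 ± 0.51, adjusted p = 0.0053, limma). Col2a1, the chief cartilage collagen (chromosome 15, 97975602 to 98004695), had 119, 236 and 355 TPM against 8.55, 10.4 and 4.16 TPM (4.71 ± 0.46, adjusted p = 0.00461, limma). Lect1, chondromodulin, had 0.532, 29.6 and 113 TPM against 0.0722, 0 and 0.486 TPM (3.90 ± 1.09, adjusted p = 0.0427, limma). That call was lost with a pseudocount of 5, without the TPM filter, without a trend, without the pairing, and without the PD8 or the PD14 pair. The chondrogenic regulators Sox9, Sox5 and Sox6 differed by 2.60 ± 0.15, 3.17 ± 0.30 and 2.65 ± 0.19. Spp1, osteopontin, was the member that did not pass, at 2108, 1207 and 847 TPM against 2050, 7061 and 3346 TPM. The median difference went from 1.09 at PD2 to 2.21 at PD8 and 2.81 at PD14. Without the PD8 pair 6 members were past the threshold, and without the pairing 10.

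Collagens as a whole had 18 of 38 higher in rRNA-depleted and 1 in poly(A), with a median of 0.62 (0.20 after centring on length). The counts were 4 and 1 without the PD8 pair. Col8a2 had 41.5, 121 and 172 TPM in the rRNA-depleted samples against 8.46, 9.07 and 14.5 TPM in the poly(A) samples. Col1a1, of fibrillar type I collagen, had 5891, 7685 and 7960 TPM against 3068, 4338 and 3582 TPM. The exception was Col7a1, of anchoring fibrils, at 31.3, 8.96 and 7.31 TPM against 82.3, 75.1 and 46.8 TPM (-2.27 ± 0.31).

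Macrophage and leukocyte markers went the other way, with 0 of 17 tested higher in rRNA-depleted and 10 in poly(A), and a median of -1.28 (-1.30 after centring on length). Lyz2, lysozyme (chromosome 10, 117277331 to 117282321), had 105, 15.9 and 23.2 TPM against 337, 621 and 569 TPM (-3.81 ± 0.68, adjusted p = 0.014, limma). Adgre1, the macrophage antigen F4/80, had 2.82, 0.68 and 2.23 TPM against 5.69, 26.2 and 34.4 TPM (-2.76 ± 0.64). The list summed to 190, 35.8 and 51.1 TPM by rRNA depletion and 449, 762 and 724 TPM by poly(A) enrichment. The rRNA-depleted sums were lower at PD8 and PD14 than at PD2, and the poly(A) sums were higher. Without the PD8 pair 0 members passed, and without the pairing 9. Of the genes named by size, Plac8 had 19.2, 3.6 and 2.43 TPM against 114, 108 and 224 TPM, and Marco, a macrophage scavenger receptor, had 0.455, 0.218 and 0.224 TPM against 2.87, 41.3 and 48.7 TPM. Pla2g7, a secreted phospholipase, had 15.4, 3.07 and 2.75 TPM against 69, 125 and 173 TPM, and Cd52, a leukocyte surface antigen, had 0.566, 0.205 and 0 TPM against 6.15, 16.3 and 17.3 TPM. Their part in the other differences was not tested.

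**Figure D4:**
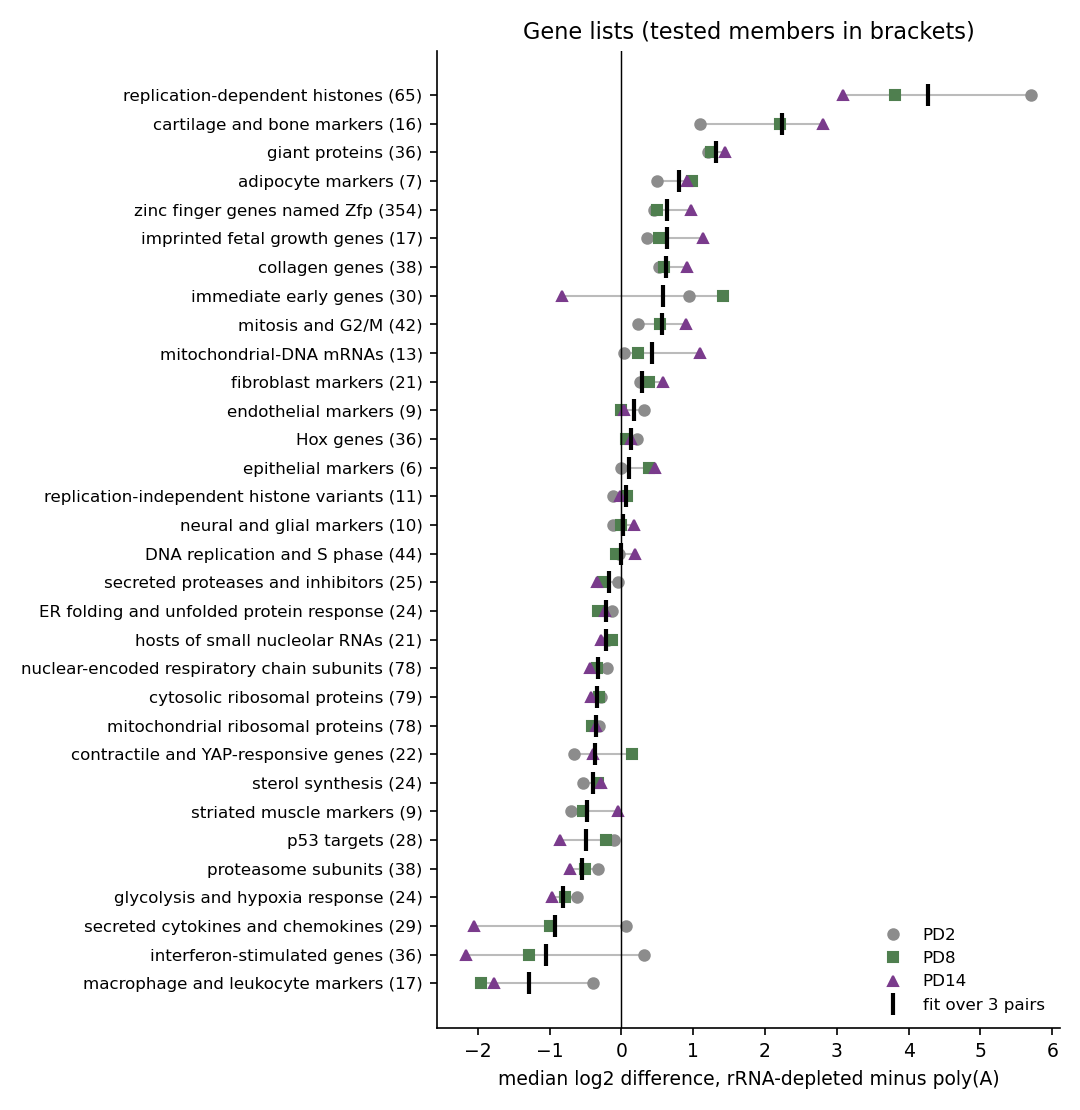
Median log2 difference, rRNA-depleted minus poly(A), of each gene list with 5 or more tested members, at PD2, PD8 and PD14 (symbols) and in the fit over 3 pairs (black bar). Among the black bars, histones and cartilage markers lie farthest right and macrophage markers farthest left. The interferon, cytokine and immediate early lists cross 0 between doublings, as do several other lists over a narrower range.

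Other lists of tissue markers had few members past the filter and no common direction. Their counts stand beside 24.3% of all genes higher in rRNA-depleted and 13.1% in poly(A). Endothelial markers had 3 of 9 higher in rRNA-depleted and 2 in poly(A), with Flt1, a VEGF receptor, at -2.02 ± 0.14 and Erg, an ETS factor, at 1.82 ± 0.33. Neural and glial markers had 3 and 3 of 10, with Map2 at 2.35 ± 0.28 and Tubb3 at -2.28 ± 0.28. Striated muscle markers had 1 and 2 of 9 (Acta1 -1.77 ± 0.21, Tnnt3 0.95 ± 0.21), and epithelial markers 1 and 0 of 6 (Trp63 1.06 ± 0.24). Adipocyte markers had 3 and 1 of 7. Plin4, of lipid droplets, had 8.48, 34.3 and 37.3 TPM in the rRNA-depleted samples against 1.29, 1.62 and 0.948 TPM in the poly(A) samples, whereas Cd36, a fatty acid transporter also found on macrophages, had 5.26, 0.208 and 0.562 TPM against 9.4, 9.71 and 14.1 TPM.

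Genes that mark where a culture came from were compared as well. The 4 Y-linked genes of the list were detected in all 6 samples, and 3 of the 4 were higher in rRNA-depleted. Of all 6 tested genes on the Y chromosome, 3 were higher in rRNA-depleted and 2 in poly(A). The transcripts of the 4 listed genes are long, with a median of 4904 bases. Of all genes of 4000 to 8000 bases, 40.0% were higher in rRNA-depleted. Uty, a histone demethylase gene, had 46, 40.9 and 42 TPM against 14, 11.4 and 8.99 TPM (1.83 ± 0.15), while Eif2s3y did not pass (0.45 ± 0.16, adjusted p = 0.0786). Of the Hox genes, which keep the positional identity of fibroblasts, 8 of 36 were higher in rRNA-depleted and 6 in poly(A). The shares over all genes were 24.3% and 13.1%. The Hox median of 0.13 was near the 0.12 of all genes. In the Hoxa cluster 7 of 11 tested genes were higher in rRNA-depleted and 0 in poly(A), and in the Hoxb cluster 5 of 8 were higher in poly(A) and 0 in rRNA-depleted. The Hoxc cluster had 0 and 1 of 9 and the Hoxd cluster 1 and 0 of 8. This split by cluster was made after the values were seen. Hoxa3 had 15.2, 16 and 25.7 TPM against 5.11, 4.01 and 5.3 TPM (1.75 ± 0.20), and Hoxb9 had 34.4, 14.5 and 9.84 TPM against 72.9, 45.7 and 59.6 TPM (-1.71 ± 0.28). Leaving out the PD8 pair gave 1 and 0 Hox genes.

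Imprinted fetal growth genes had 8 of 17 higher in rRNA-depleted and 2 in poly(A), with a median of 0.63. Mest, which is expressed from the paternal allele (chromosome 6, 30723547 to 30748465), had 664, 1290 and 1001 TPM against 146, 56.8 and 49.1 TPM (3.66 ± 0.47, adjusted p = 0.00714, limma). The PD8 value was above the PD2 value in the rRNA-depleted series and below it in the poly(A) series. Nnat, neuronatin, had 12.4, 1.15 and 1.59 TPM against 26.6, 21.9 and 13.7 TPM (-2.32 ± 0.45).

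Contractile and YAP-responsive genes were split, 5 of 22 higher in rRNA-depleted and 6 in poly(A), beside 24.3% and 13.1% of all genes. Without the pairing 3 and 2 passed, and without the PD8 pair 0 and 5. Tagln, an actin-binding protein of smooth muscle, had 923, 990 and 412 TPM by rRNA depletion against 3170, 1921 and 1570 TPM by poly(A) enrichment (-1.55 ± 0.22), and Acta2, smooth muscle actin, had 2260, 2134 and 851 TPM against 6119, 3490 and 2885 TPM (-1.30 ± 0.24). Ankrd1, a mechanosensitive YAP target, had 20.6, 4.65 and 1.33 TPM against 112, 40.7 and 48.5 TPM (-3.23 ± 0.40). Secreted proteases and inhibitors had 3 and 7 of 25, with Mmp9 at 1.03, 0.761 and 1.5 TPM against 12, 10.8 and 9.22 TPM (-2.48 ± 0.23) and Mmp10 at -2.16 ± 0.34. For Mmp9 the poly(A) values were all above the rRNA-depleted values.

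The counts of the next lists are to be read beside all-gene shares of 24.3% higher in rRNA-depleted and 13.1% in poly(A). Of the p53 targets, 5 of 28 were higher in rRNA-depleted and 7 in poly(A), and 0 in either direction without the PD8 pair. Cdkn1a, the cell-cycle inhibitor p21, had 375, 573 and 379 TPM against 700, 1200 and 1385 TPM (-1.28 ± 0.21), and Pmaip1, the death inducer Noxa, differed by -1.58 ± 0.26. Genes of folding in the endoplasmic reticulum had 0 and 5 of 24 (Ddit3 -0.88 ± 0.12). Hosts of small nucleolar RNAs, whose introns hold those RNAs, had 3 and 5 of 21, with Taf1d at 1.33 ± 0.16 and Rack1 at -0.95 ± 0.11. Lars2, the only tested gene of the list that overlaps ribosomal RNA repeats, had 11.2, 10.8 and 14.7 TPM against 7.7, 9.03 and 8.3 TPM (adjusted p = 0.0815).

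Mitosis and G2/M genes had 18 of 42 higher in rRNA-depleted and 1 in poly(A), with a median of 0.56 (0.48 after centring on length). Cenpf, a kinetochore protein gene, had 28.9, 18.8 and 17.1 TPM in the rRNA-depleted samples against 10.7, 4.26 and 1.52 TPM in the poly(A) samples (2.03 ± 0.31), and Smc4, of condensin, had 129, 85.4 and 85.4 TPM against 63.3, 28.7 and 11 TPM (1.80 ± 0.35). The median of the list was 0.23 at PD2 and 0.90 at PD14, and 1 member passed without the PD8 pair or without the pairing. DNA replication and S phase genes had 1 and 3 of 44 and a median of 0. Fen1, a flap endonuclease, differed by -1.71 ± 0.32 and Pola1, a polymerase subunit, by 1.09 ± 0.23. The histones, which are also made in S phase, had the median of 4.27 given above.

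Other genes named for the size of their difference follow. Penk, which encodes the enkephalin precursor (chromosome 4, 4133531 to 4138819), had 264, 6751 and 6704 TPM in the rRNA-depleted samples against 17.2, 145 and 225 TPM in the poly(A) samples (4.76 ± 0.31, adjusted p = 0.00309, limma). It went up from PD2 by both methods, at levels far apart. Egfl6, a matrix protein gene, had 22.5, 213 and 448 TPM against 3.54, 2.31 and 3.92 TPM (4.97 ± 0.82), and Thbs4, thrombospondin 4, had 18.4, 113 and 152 TPM against 6.31, 0.307 and 1.05 TPM (4.69 ± 1.03). For both, the gap was narrowest at PD2. The calls of Egfl6 and Thbs4 were lost without the PD8 pair or without the PD14 pair.

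Foxp2, a forkhead transcription factor gene, had 34.6, 62.6 and 82.6 TPM against 2.94, 2.28 and 2.72 TPM (3.98 ± 0.29, adjusted p = 0.0034, limma). Mme, the peptidase neprilysin, had 87.7, 212 and 628 TPM against 10.9, 10.1 and 23.9 TPM (3.94 ± 0.34). Sned1 and Abi3bp, of the extracellular matrix, differed by 3.83 ± 0.26 and 3.68 ± 0.31, and Nfia, a nuclear factor I gene, by 3.67 ± 0.20. Enpep, an aminopeptidase, differed by 3.70 ± 0.43 and Scara5, a ferritin receptor, by 3.95 ± 0.62. On the poly(A) side, Ctla2a had 15.2, 4.91 and 3.4 TPM against 58.7, 80.5 and 196 TPM (-3.72 ± 0.65), Cma2, a chymase gene, differed by -3.22 ± 0.54, and Lrrc15, a fibroblast surface protein gene, by -3.10 ± 0.49. Of the 30 genes named for the size of their difference, 14 fell out of testing with a minimum of 1 TPM in all 6 samples, and 9 passed in every alternative: Ncapd2, Col2a1, Foxp2, Mme, Sned1, Abi3bp, Nfia, Ccl20 and Ankrd1. Leaving out the PD8 pair ended 12 of the 30 calls, leaving out the PD14 pair 7 and leaving out the PD2 pair 0.

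Immediate early genes, which respond within minutes to stimulation, were high in the rRNA-depleted samples at PD2 and PD8 but not at PD14. Of 30 tested, 5 were higher in rRNA-depleted and 3 in poly(A), beside 24.3% and 13.1% of all genes. The median went from 0.94 at PD2 to 1.41 at PD8 and -0.82 at PD14. Fos had 422, 617 and 11.7 TPM in the rRNA-depleted samples against 9.72, 4.5 and 27.6 TPM in the poly(A) samples (adjusted p = 0.113). Fosb had 142, 317 and 2.08 TPM against 1.87, 1.1 and 1.52 TPM (adjusted p = 0.0502). The rRNA-depleted PD14 sample was thus at the poly(A) level for Fosb, and below the PD14 poly(A) sample for Fos. Nr4a2, an orphan nuclear receptor gene, had 128, 80.5 and 8.19 TPM against 8.56, 5.56 and 5.95 TPM and passed the test (2.60 ± 0.69).

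A last comparison asked whether the method difference itself changed from PD2 to PD14. At an adjusted p under 0.05, 5 genes moved toward rRNA-depleted (0.0374% of those tested) and 25 toward poly(A) (0.187%), with 902 and 1160 at an unadjusted p under 0.05. The 25 held 6 replication-dependent histones, 5 interferon-stimulated genes and 6 cytokines or chemokines. These calls depended on the settings: 0 genes passed in either direction without the TPM filter, after quantile normalization or in limma without a trend. Across the 13362 genes the change from PD2 to PD14 correlated between the methods at a Pearson r of 0.515, and 69.6% of genes changed with the same sign. This is a correlation across genes, which are not independent replicates.

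Interferon-stimulated genes, the antiviral response genes, summed to 416, 650 and 1132 TPM in the rRNA-depleted samples and to 389, 1852 and 5949 TPM in the poly(A) samples. At PD2, 27 of the 36 were higher in the rRNA-depleted sample, and at PD8 and PD14 0 were. The median difference went from 0.32 to -1.28 and -2.17. In the fit over 3 pairs 0 passed toward rRNA-depleted and 4 toward poly(A). Isg15, a ubiquitin-like modifier, had 13.4, 32.6 and 54.6 TPM against 25.5, 271 and 986 TPM, and its difference changed by -3.27 ± 0.33 from PD2 to PD14 (adjusted p = 0.0441, limma). Ifit3, which binds viral RNA complexes, had 16.3, 23.8 and 47.8 TPM against 11.3, 96.6 and 584 TPM (-4.07 ± 0.32). Oas1a, an oligoadenylate synthetase, had 1.02, 0.931 and 1.36 TPM against 2.56, 8.84 and 45.6 TPM. Their sum was higher at PD14 than at PD2 by both methods. Without the PD8 pair, or without the pairing, 0 passed in either direction in the comparison of levels.

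Cytokines and chemokines had 2 of 29 higher in rRNA-depleted and 8 in poly(A), with a median of 0.07 at PD2, -0.99 at PD8 and -2.05 at PD14. Ccl20, which attracts CCR6 cells, was already apart at PD2, with 2.4, 8.02 and 4.71 TPM against 27.8, 132 and 173 TPM (-3.97 ± 0.35, adjusted p = 0.00435, limma). Ccl2, the monocyte chemokine, had 174, 286 and 208 TPM against 317, 1074 and 2922 TPM, a change in the difference of -2.95 ± 0.30. Ccl7, its neighbour, had 174, 263 and 200 TPM against 303, 1106 and 2113 TPM (-2.60 ± 0.21). In both, the rRNA-depleted values were highest at PD8 and the poly(A) values were higher at each step.

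Cxcl10, an interferon-induced chemokine, had 3.45, 0.897 and 1.74 TPM against 4.89, 21 and 141 TPM (-5.29 ± 0.47), and Ccl11, eotaxin, had 3.89, 3.31 and 2.62 TPM against 7.26, 27.7 and 157 TPM (-4.69 ± 0.42). Cxcl14 had 73.5, 96.6 and 66.7 TPM against 151, 777 and 1378 TPM (-3.32 ± 0.26). The 2 members higher in rRNA-depleted were Il18, at 1.05 ± 0.23, and Cxcl12, the stromal chemokine, at 245, 748 and 1150 TPM against 179, 215 and 197 TPM (1.59 ± 0.39). Only the rRNA-depleted values of Cxcl12 were higher at each step. Cck, the peptide hormone cholecystokinin (chromosome 9, 121489824 to 121495694), had the largest change of all named genes, with 12.9, 10.1 and 1.61 TPM against 19, 134 and 347 TPM (-6.54 ± 0.31, adjusted p = 0.016, limma). It went down in the rRNA-depleted series and up in the poly(A) series.

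Toward rRNA-depleted, Eln, elastin, had 171, 202 and 257 TPM against 128, 18.9 and 8.56 TPM, a change of 4.34 ± 0.44 (adjusted p = 0.0422, limma). Nrk, a kinase gene on the X chromosome, had 52.1, 100 and 155 TPM against 26.9, 10.7 and 4.42 TPM (3.92 ± 0.30). Pcdhgb4, of the clustered protocadherins, had 28.1, 46 and 141 TPM against 22.4, 10.2 and 11.3 TPM (3.21 ± 0.30). Eln, Nrk and Ncapd2 went up in 1 series and down in the other. The fifth gene, Slc1a5, a glutamine transporter gene, had 58.2, 112 and 157 TPM against 84.9, 35.7 and 22.5 TPM (3.29 ± 0.34).

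**Figure D5:**
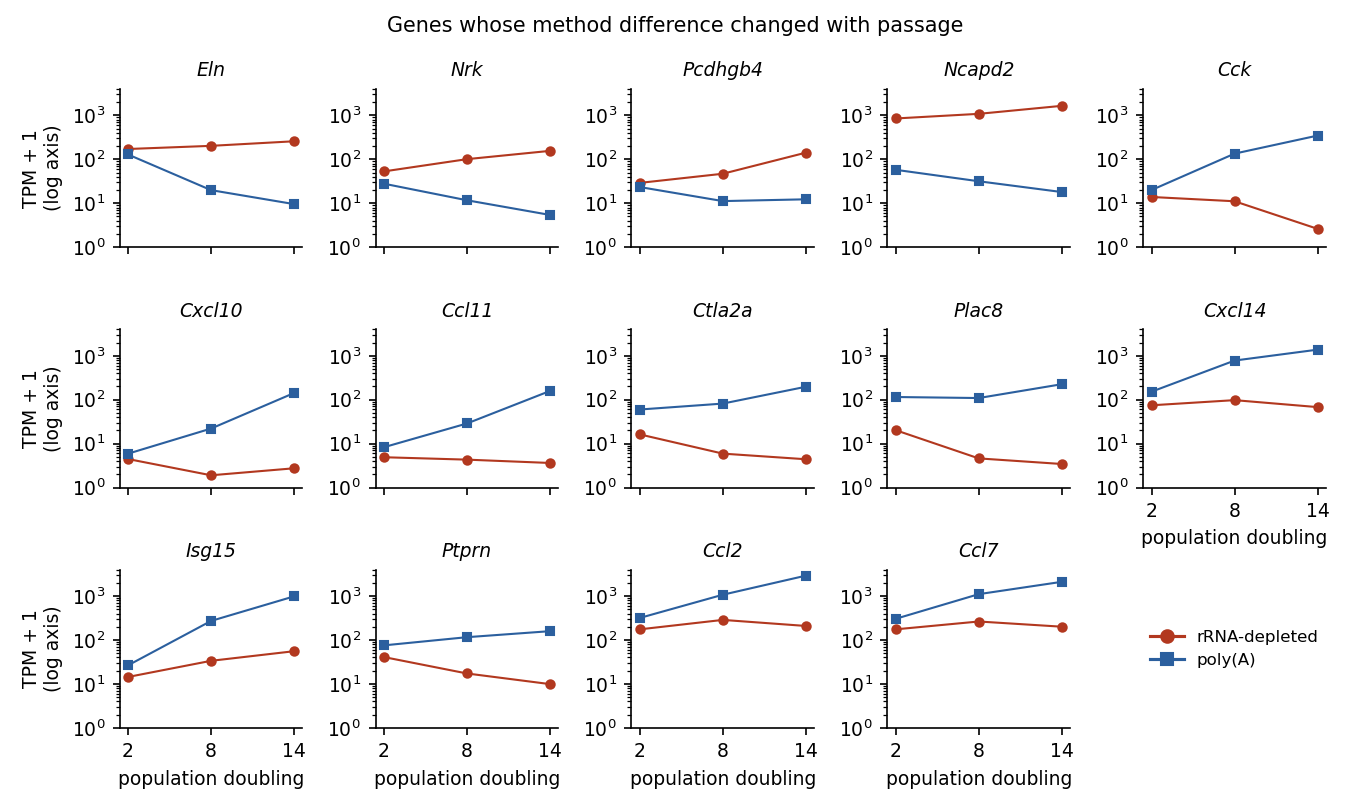
TPM + 1 (log axis) at PD2, PD8 and PD14 of the 14 named genes whose method difference changed with passage, rRNA-depleted in red circles and poly(A) in blue squares. The first 4 panels part with the rRNA-depleted line on top, and the other 10 with the poly(A) line on top.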

How the data were processed

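RNA was sequenced from 6 samples of mouse embryonic fibroblasts. The authors deposited TPM values per gene symbol. Per the submitters' processing notes they used StringTie 1.3.1c, HISAT2 2.0.5, cutadapt 1.14 and bcl2fastq. The build was mm10. The gene annotation is not given in the sources used here. Each column was rescaled to sum to 1000000, and genes with at least 1 TPM in 2 samples were kept. Values were tested as log2(TPM + 1) in limma 3.58.1 (R 4.3.3), with population doubling and method as terms, a trend in the variance, and Benjamini-Hochberg adjustment over all genes at 0.05. The passage comparison added a method by doubling term. A fold on this scale understates the change of low genes. The fit had 2 residual degrees of freedom, or 1 with the added term. An exact permutation test of 3 pairs cannot go below p = 0.25, nor 1 of 3 against 3 below 0.1. The script was tested on simulated data.

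Symbols were matched to GENCODE M21, 21500 of 21988 to 1 gene. Length, GC content and motifs came from the principal protein-coding transcript, the longest where several were tagged. That transcript can be short, as for Ahnak. The members and gene lists were chosen with earlier results of these data known. Named genes were the 15 largest called differences in each direction with 1 sign at all 3 doublings and a mean TPM of 5 (10 for the passage change), predicted genes and histones passed over, plus the 2 largest of each list and some further examples. Alternatives were pseudocounts, filters, scalings, no trend, no pairing, and leaving out each pair. Centring on transcript length was chosen after seeing the data.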

Additional observations from a re-analysis of the deposited data

Results flagged for a closer look

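The difference between the methods changed from PD2 to PD14 for 5 genes toward rRNA-depleted and for 25 toward poly(A), by the method by doubling term in limma. On the log2 scale the change was 4.34 for Eln, 3.92 for Nrk, 3.21 for Pcdhgb4 and 2.64 for Ncapd2. It was -6.54 for Cck, -5.29 for Cxcl10, -4.69 for Ccl11, -3.6 for Ctla2a, -3.53 for Plac8, -3.32 for Cxcl14, -3.27 for Isg15, -3.12 for Ptprn, -2.95 for Ccl2 and -2.6 for Ccl7. The culture series of each method cannot be told apart from the method.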

How the results depend on the processing

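The counts of genes that differed between the methods, 3250 higher in rRNA-depleted and 1751 higher in poly(A), became 2134 and 1001 without the pairing by doubling. Leaving out 1 pair gave 633 to 3031 and 138 to 2092, the lowest without the PD8 pair (replicate 2), and 517 were higher in poly(A) and 1473 in rRNA-depleted without the PD14 pair. Quantile normalization gave 2720 higher in poly(A). The median of all genes was -0.01 after median-of-ratios scaling and -0.06 after quantile normalization. The median of the Hox genes was -0.04 after quantile normalization and that of the endothelial markers -0.05 without the PD2 pair and 0.29 without the PD14 pair. The passage change, 5 and 25 genes, gave 64 and 160 with a pseudocount of 5, 2 and 10 with the deposited values, and 0 and 2 after median-of-ratios scaling. It gave 8 toward rRNA-depleted with 1 TPM in all 6 samples. With no filter, after quantile normalization and without a trend it gave 0 and 0. The cause was not tested. Leaving out a pair and dropping the pairing were not run for the passage change. Unknown depth limits what can be said of low genes.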
